A study of Mus musculus with 9 samples.

Results

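The transcripts described here are those of 10 genes of type 2 immunity in mouse lung, chosen by symbol from the 21930 genes of the count table: Il33, Il1rl1, Gata3, Il4ra, Chia1, Chil4, Retnla, Arg1, Tslp and Il13. All 10 symbols were found, each at 1 identifier. Lungs of C57BL/6 mice labelled male and aged 6 to 8 weeks were compared in 3 groups of 3 separate animals. The LPS plus RSBD group received lipopolysaccharide (LPS, a bacterial outer-membrane component that activates innate immunity) into the trachea at 2 mg/kg. From 24 h later it was gavaged daily, 5 doses by the labels, with Renshen Baidu Powder (RSBD), a traditional herbal formula given as a decoction. The LPS group received the same LPS dose and then vehicle by gavage. The control group received sterile saline into the trachea, and no separate gavage is stated for it. All mice were anaesthetised with tribromoethanol for the instillation, and lungs were taken on day 5 after it. The comparisons ask which of the 10 transcripts differ after LPS, and which differ when RSBD follows LPS.

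Type 2 immunity is the arm of the immune system that answers parasites, allergens and tissue damage. Epithelial cells release the alarm cytokines IL-33 and TSLP, which act on group 2 innate lymphoid cells (ILC2) and T helper 2 cells through receptors that include ST2, the product of Il1rl1. Those lymphocytes depend on the transcription factor GATA3 and secrete IL-13, which acts through a receptor containing the Il4ra chain and the transcription factor STAT6. In mice, targets of that signal include the macrophage and epithelial proteins encoded by Retnla, Arg1 and Chil4. Chia1 encodes the acidic chitinase of airway and alveolar epithelium. In mouse lung IL-33 is stored mainly in the nuclei of alveolar type 2 cells, the surfactant-making cells of the alveolus.

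RefSeq promoter windows (build GRCm38.p6, 250 bases before to 50 after a start) were on hand for 8 of the 10 members, in 10 windows. Those printed are of the 2 members that passed a test, Il33 and Chia1, of Retnla, the most abundant member by TPM in controls, and of the near-identical pair Chil4 and Chil3. In Il33 and Retnla the capitals mark a match to the STAT6 motif, TTC and GAA parted by any 4 bases, which reads the same on both strands. In Chia1 they mark TATAA found on both strands in overlap. In Chil4 and Chil3 they mark mismatched bases in the alignment of this pair, and bases without a partner in the alignment stay in lower case.
Il33, first start (chr19:29924863-29925162, plus strand): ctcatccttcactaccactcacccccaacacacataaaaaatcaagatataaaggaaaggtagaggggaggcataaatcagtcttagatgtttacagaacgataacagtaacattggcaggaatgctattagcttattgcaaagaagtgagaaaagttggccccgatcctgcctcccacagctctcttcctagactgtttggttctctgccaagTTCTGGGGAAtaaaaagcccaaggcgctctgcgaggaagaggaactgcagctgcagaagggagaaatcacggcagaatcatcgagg
Chia1 (chr3:106113132-106113431, plus strand): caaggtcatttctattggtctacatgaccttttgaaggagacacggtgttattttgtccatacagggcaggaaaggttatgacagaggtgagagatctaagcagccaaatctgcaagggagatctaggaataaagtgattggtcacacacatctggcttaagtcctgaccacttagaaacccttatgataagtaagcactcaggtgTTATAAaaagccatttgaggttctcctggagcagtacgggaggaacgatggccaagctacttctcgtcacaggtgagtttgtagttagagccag
Retnla (chr16:48842359-48842658, plus strand): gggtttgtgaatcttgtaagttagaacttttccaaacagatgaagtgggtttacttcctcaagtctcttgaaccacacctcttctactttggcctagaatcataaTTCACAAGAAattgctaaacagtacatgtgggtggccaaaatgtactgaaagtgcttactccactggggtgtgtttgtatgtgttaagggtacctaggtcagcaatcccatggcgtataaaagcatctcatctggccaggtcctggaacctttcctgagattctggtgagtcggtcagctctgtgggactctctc
Chil4 (chr3:106219430-106219729, minus strand): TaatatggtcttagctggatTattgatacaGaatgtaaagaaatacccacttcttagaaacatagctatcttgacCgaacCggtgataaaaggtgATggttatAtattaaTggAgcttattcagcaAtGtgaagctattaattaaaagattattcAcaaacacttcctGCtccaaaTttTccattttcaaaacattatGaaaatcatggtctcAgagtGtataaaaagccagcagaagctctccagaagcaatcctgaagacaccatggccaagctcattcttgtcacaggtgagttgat
Chil3 (chr3:106167515-106167814, minus strand): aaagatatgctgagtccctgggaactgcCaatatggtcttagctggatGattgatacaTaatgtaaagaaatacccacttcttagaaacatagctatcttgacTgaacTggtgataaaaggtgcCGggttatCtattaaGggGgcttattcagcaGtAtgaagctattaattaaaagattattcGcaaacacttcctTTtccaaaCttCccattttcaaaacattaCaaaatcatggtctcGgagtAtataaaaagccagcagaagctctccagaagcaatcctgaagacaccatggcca
The STAT6 match began 36 bases before the first Il33 start and 145 bases before the Retnla start. It was found in 2 of the 10 member windows, and in 6.26% of 20467 windows of the same length over genes of the table. The AP-1 motif TGANTCA, searched on both strands, was in 0 of the 10 windows and in 7.07% of all windows. The Chil4 and Chil3 windows were identical at 92.6% of aligned bases, a share that leaves out bases without a partner. A match is a run of letters and was not tested for binding.

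Total counts were 26959662 to 36113905 per library over protein-coding genes. Levels are CPM (counts scaled to a common library total, adjusted between libraries by TMM) unless TPM, which also divides by transcript length, is named. Differences are given as log2 fold changes ± SE, fitted with edgeR over 15636 genes, and passed at a Benjamini-Hochberg adjusted p under 0.05. The sex label was not borne out in the control libraries. Reads of chromosome Y genes numbered 10918, 9577 and 7511 in LPS plus RSBD, 8839, 8794 and 8278 in LPS, and 6, 7 and 9 in control libraries. Sex and treatment therefore cannot be told apart in any comparison with control. Lung markers were abundant in every library: the summed level of 12 alveolar type 2 markers was 15500 to 20300 CPM in LPS plus RSBD, 13700 to 20800 CPM in LPS and 15900 to 19800 CPM in control libraries. Neutrophil markers varied widely within groups, with summed levels of 1000, 714 and 3350 CPM in LPS plus RSBD, 7330, 6760 and 2610 CPM in LPS, and 2050, 834 and 2310 CPM in control libraries 1 to 3.

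Among the members, Il33 and Chia1 were lower in LPS lungs than in control lungs, Chia1 was also lower in LPS plus RSBD lungs than in control lungs, and 0 members rose. In LPS against control, 2 of the 9 members tested passed, both lower, where 17.4% of all genes passed, 8.79% as higher and 8.63% as lower. Between LPS plus RSBD and LPS, 0 members and 0% of all genes passed by edgeR. At an unadjusted p under 0.05 that comparison held 1 member, Chia1, and 1473 genes (9.42%), and DESeq2 called 0 members and 159 genes. In LPS plus RSBD against control, 1 of 9 members passed, as lower, where 3.7% of all genes passed, 1.89% as higher and 1.8% as lower. The same shares apply to the counts of listed genes and cell markers given below. The median log2 change over the 9 members was -0.17 in LPS against control, 0.10 in LPS plus RSBD against LPS and -0.17 in LPS plus RSBD against control. Over all genes tested it was -0.01, 0.01 and 0.01. The last 2 comparisons each share a group with the first.

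**Figure D1:**
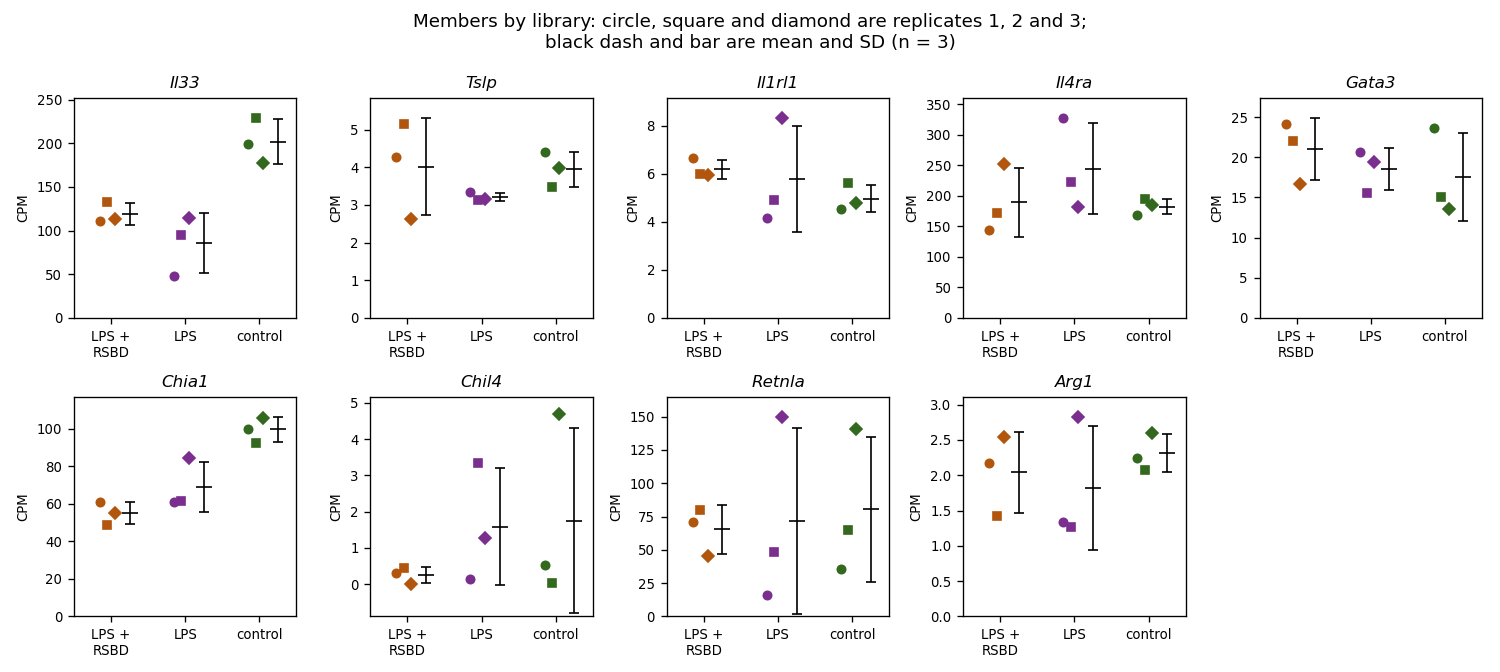
CPM of 9 members in each library, with groups LPS plus RSBD, LPS and control from left to right, symbols for replicates 1 to 3, and a dash and bar for mean and SD (n = 3). Il33 and Chia1 lie lower in all LPS plus RSBD and LPS libraries than in all control libraries, while the other members overlap in at least 1 pair of groups.

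Of the alarm cytokines, Il33 (ENSMUSG00000024810, chromosome 19, 29925114 to 29960718, up to 8 exons) had the clearest pattern. It measured 111, 133 and 113 CPM in LPS plus RSBD libraries, 47.4, 94.5 and 115 CPM in LPS libraries, and 199, 229 and 177 CPM in control libraries 1 to 3. All 6 libraries of LPS-treated mice lay below all 3 control libraries, and the LPS plus RSBD libraries overlapped the LPS libraries. Such separation from control, in either direction, held for 38% of all genes in LPS and 30.4% in LPS plus RSBD. Il33 averaged 85.6 ± 34.7 CPM in LPS and 202 ± 26 CPM in control lungs (SD, n = 3 each), a log2 change of -1.24 ± 0.27 (edgeR adjusted p = 0.0186). It averaged 119 ± 12.3 CPM in LPS plus RSBD lungs. The log2 difference from LPS was 0.48 ± 0.27 (95% interval -0.12 to 1.08, edgeR adjusted p = 0.622), so neither no difference nor a difference of 1 log2 unit lay outside the interval. Without LPS 1, the lowest library, it was 0.19, and without LPS 3 it was 0.73. Against control it was -0.76 ± 0.27 (edgeR adjusted p = 0.138, range 0.0179 to 0.299 over alternatives), which passed with DESeq2 (adjusted p = 0.0261), in a fit of those 2 groups alone (0.028) and without LPS 1 (0.0179). The call in LPS against control was lost without LPS 2 (edgeR adjusted p = 0.0525) and without control 2 (0.0582).

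Bulk RNA cannot tell fewer cells of a type from less RNA per cell. Il33 and Chia1 were therefore set beside markers of alveolar type 2 cells. Ratios to markers of other cell types were not formed. Per 1000 reads of the 12 alveolar type 2 markers, Il33 had 5.48, 8.59 and 6.04 reads in LPS plus RSBD, 3.47, 5.28 and 5.52 reads in LPS, and 10.7, 11.6 and 11.1 reads in control libraries. The order of the groups was thus the same as in CPM, with LPS plus RSBD and LPS overlapping and both below control. Sftpc (surfactant protein C) alone gave 9350 of the 18700 CPM of these markers in control 1 and 11400 of 20800 CPM in LPS 3. For Chia1 the same ratio was 3.00, 3.15 and 2.96 in LPS plus RSBD, 4.48, 3.45 and 4.06 in LPS, and 5.38, 4.68 and 6.67 in control libraries. Here the 3 groups did not overlap, with nearest values of 3.15 in LPS plus RSBD and 3.45 in LPS. These ratios were not formed for genes other than Il33 and Chia1. In CPM, LPS plus RSBD and LPS did not overlap for 12.6% of all genes. Against control this was so for 38% in LPS and 30.4% in LPS plus RSBD. The alveolar type 2 list itself had 1 lower call of 12, Sftpd (surfactant protein D), in LPS against control, and 0 in LPS plus RSBD against control. The club cell list had 5 lower calls of 10 in LPS against control and 0 in LPS plus RSBD against control, and its part in these results was not tested.

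**Figure D2:**
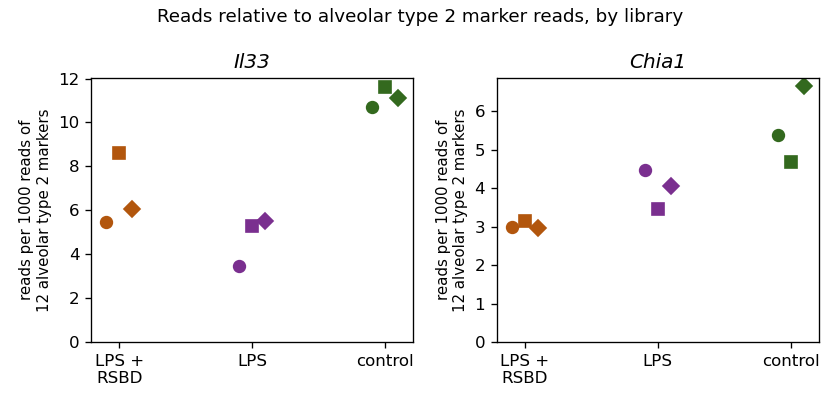
Reads of Il33 (left) and Chia1 (right) per 1000 reads of 12 alveolar type 2 markers in each library, with LPS plus RSBD, LPS and control from left to right. Il33 lies between 3.47 and 8.59 in LPS-treated mice and between 10.7 and 11.6 in controls. Chia1 falls into 3 separate ranges, with LPS plus RSBD reaching 3.15 and LPS starting at 3.45.

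Tslp (ENSMUSG00000024379, chromosome 18, 32815383 to 32819797), whose product acts on dendritic cells and ILC2, was low in every library. It measured 4.28, 5.16 and 2.62 CPM in LPS plus RSBD, 3.34, 3.13 and 3.16 CPM in LPS, and 4.40, 3.47 and 3.99 CPM in control libraries. The LPS libraries lay just below the controls without overlap, as was so in either direction for 38% of all genes in that comparison, and the LPS plus RSBD libraries spanned both. Its log2 change in LPS against control was -0.30 ± 0.26 (edgeR adjusted p = 0.453), and the difference of LPS plus RSBD from LPS was 0.33 ± 0.26 (95% interval -0.26 to 0.91, edgeR adjusted p = 0.742). Il13 (ENSMUSG00000020383, chromosome 11, 53631324 to 53634702), the effector cytokine, had 0, 2 and 0 reads in LPS plus RSBD, 0, 0 and 5 reads in LPS, and 0, 3 and 4 reads in control libraries. It was the member left untested for low counts, and at this depth no difference could be detected.

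Of the other cytokines of this arm, several had few or no reads. Il9 and Il25 had 0 reads in all 9 libraries. Il4, the cytokine that drives T helper 2 fate, averaged 1.09 ± 0.12 CPM in LPS plus RSBD, 0.853 ± 0.363 CPM in LPS and 1.33 ± 0.178 CPM in control lungs. Il5, the eosinophil growth factor, averaged 0.630 ± 0.211 CPM in LPS plus RSBD, 0.524 ± 0.150 CPM in LPS and 0.437 ± 0.204 CPM in control lungs. Areg (amphiregulin, a repair factor of ILC2 and epithelium) averaged 4.10 ± 0.943 CPM in LPS plus RSBD, 3.39 ± 0.945 CPM in LPS and 6.41 ± 2.78 CPM in control lungs. Csf2 (GM-CSF, a myeloid growth factor) had 57 to 109 reads in LPS plus RSBD, 53 to 94 reads in LPS and 68 to 95 reads in control libraries. None of the 4 passed in any comparison (lowest edgeR adjusted p = 0.268 for Il4 and 0.571 for Il5, 0.104 for Areg, 0.697 for Csf2). Of the 10 listed cytokines and alarmins 6 could be tested, and Il33 was the 1 called, in LPS against control. The 10 include 3 members.

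**Figure D3:**
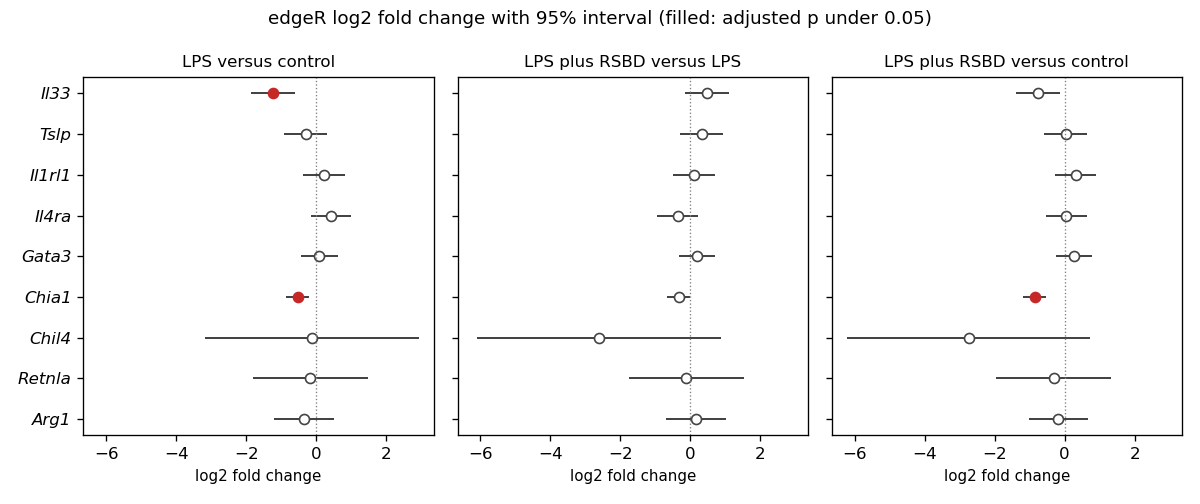
edgeR log2 fold change (point) and 95% interval (line) of the 9 members tested in each of the 3 comparisons, with filled points for an adjusted p under 0.05. Il33 at -1.24 and Chia1 at -0.53 are filled in LPS against control and Chia1 at -0.86 in LPS plus RSBD against control, and no point is filled in LPS plus RSBD against LPS.

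Of the receptors, Il1rl1 (ENSMUSG00000026069, chromosome 1, 40429570 to 40465415) encodes ST2, which exists as a membrane receptor and a soluble decoy that gene-level counts do not separate. It measured 6.64, 5.97 and 5.96 CPM in LPS plus RSBD, 4.16, 4.90 and 8.32 CPM in LPS, and 4.54, 5.60 and 4.77 CPM in control libraries. LPS 3 was the highest and LPS 1 the lowest of all 9, so the LPS group spanned the others, while all LPS plus RSBD libraries lay above all controls. Such a lack of overlap held for 30.4% of all genes in LPS plus RSBD against control, and the log2 change of Il1rl1 there was 0.32 ± 0.25 (edgeR adjusted p = 0.492). In LPS against control it was 0.22 ± 0.26 (adjusted p = 0.577) and without LPS 3 it was -0.11.

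Il4ra (ENSMUSG00000030748, chromosome 7, 125552120 to 125579474), the chain shared by the IL-4 and IL-13 receptors, is carried by many cell types and was a well-expressed member. It measured 143, 171 and 252 CPM in LPS plus RSBD, 327, 222 and 182 CPM in LPS, and 169, 194 and 185 CPM in control libraries. The controls were close together. The LPS libraries reached from within the control range to above it, and the LPS plus RSBD libraries spread to both sides. Its log2 change was 0.42 ± 0.24 in LPS against control (edgeR adjusted p = 0.256) and -0.37 ± 0.24 in LPS plus RSBD against LPS (95% interval -0.92 to 0.18, edgeR adjusted p = 0.674). LPS 1 and LPS plus RSBD 3 were the highest of their groups both for Il4ra and for the summed neutrophil markers. Among controls, control 2 was highest for Il4ra at 194 CPM but lowest for the neutrophil sum at 834 CPM. The part of neutrophils in this spread was not tested. An antisense gene model overlaps Il4ra, and the kit kept strand, but whether counting used it is not given in the sources used here.

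Of 25 listed receptor chains and signal transducers of this arm, 24 were tested, 5 rose and 0 fell in LPS against control, with a median log2 change of 0.33. Among all genes, 8.79% rose and 8.63% fell in that comparison. Against control 2 rose and 0 fell in LPS plus RSBD (median 0.16), where 1.89% of all genes rose and 1.8% fell. In LPS plus RSBD against LPS 0 passed (median -0.09). Crlf2, the TSLP receptor chain, measured 23.2, 25.4 and 24.9 CPM in LPS plus RSBD, 29.5, 32.5 and 25.5 CPM in LPS, and 14.9, 16.2 and 16.0 CPM in control libraries. All libraries of LPS-treated mice exceeded all controls. Such separation, in either direction, held for 38% of all genes in LPS and 30.4% in LPS plus RSBD. Crlf2 rose by 0.89 ± 0.11 in LPS (edgeR adjusted p = 0.00289) and 0.64 ± 0.11 in LPS plus RSBD (adjusted p = 0.0189, lost without LPS plus RSBD 2 or any single control and under all 3 limma settings on log2 TPM, highest 0.0744). Il2rg, the common gamma chain that joins Il4ra in the type I IL-4 receptor, averaged 108 ± 21.9 CPM in LPS plus RSBD, 108 ± 3.64 CPM in LPS and 60.0 ± 4.93 CPM in control lungs. It rose by 0.85 ± 0.13 in LPS (edgeR adjusted p = 0.00528) and by 0.84 ± 0.13 in LPS plus RSBD (0.0142, lost without control 3, 0.0554). Il2rg lies on chromosome X, and sex and treatment cannot be told apart for it.

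Csf2rb is a beta chain of the IL-3, IL-5 and GM-CSF receptors, and Csf2rb2 is a beta chain of the IL-3 receptor in the mouse. Csf2rb and Csf2rb2 rose by 1.13 ± 0.27 and 1.09 ± 0.24 in LPS against control (edgeR adjusted p = 0.025 and 0.0202). Both calls were lost without LPS 2 or any single control, and that of Csf2rb also without LPS 1 and under 2 of 3 limma settings on log2 TPM (highest 0.0792 and 0.0739). Il17ra, a chain of the IL-25 and IL-17 receptors, rose by 0.84 ± 0.25 (adjusted p = 0.047), a call lost under 13 alternatives, among them the omission of LPS 1, LPS 2, any single control, LPS plus RSBD 1 or LPS plus RSBD 2, no filter on low counts, the fit of 2 groups and all 3 limma settings (highest 0.209). These 3 chains are carried by myeloid cells, and in the same comparison 4 of 12 monocyte and recruited macrophage markers and 2 of 12 neutrophil markers rose. Summed monocyte and macrophage markers ranged from 1290 to 1860 CPM in LPS and from 1030 to 1360 CPM in control libraries, and their part in the result was not tested. Il13ra1 and Il1rap, the partner chains of Il4ra and ST2, did not pass in any comparison (lowest edgeR adjusted p = 0.167 and 0.182).

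**Figure D4:**
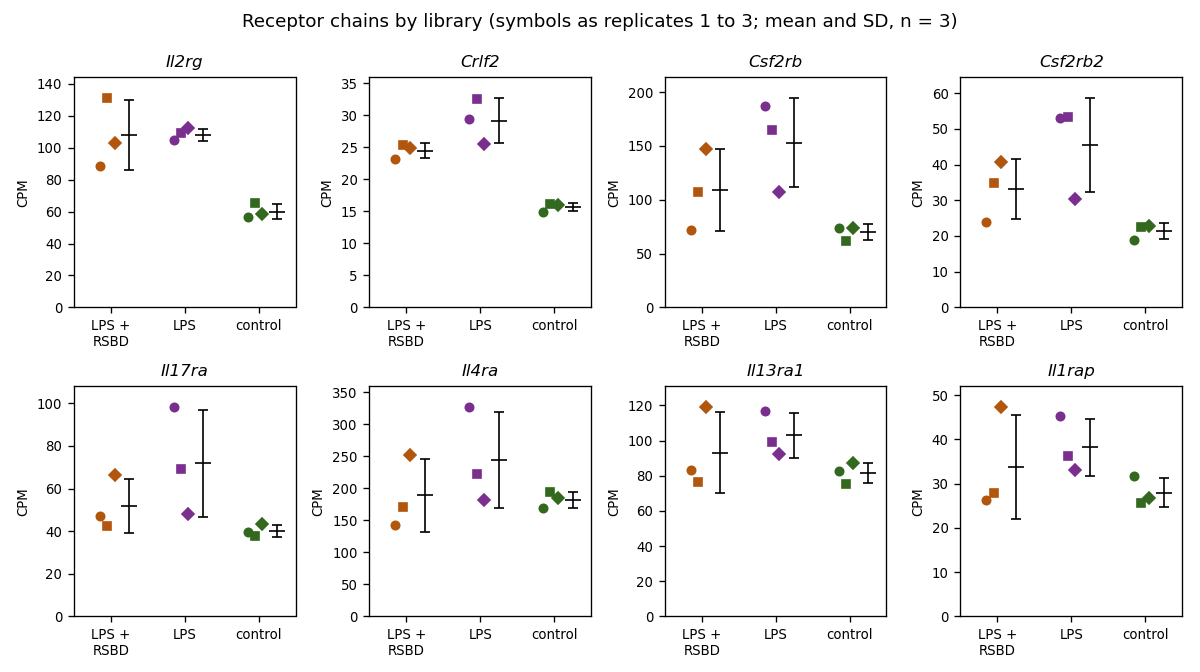
CPM of 8 receptor chains in each library, with LPS plus RSBD, LPS and control from left to right, symbols for replicates 1 to 3, and mean and SD (n = 3). Crlf2 and Il2rg lie higher in all 6 libraries of LPS-treated mice than in controls, while Il4ra at 143 to 327 CPM in those 6 spans the controls.

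Gata3 (ENSMUSG00000015619, chromosome 2, 9857078 to 9890034) is the transcription factor of T helper 2 cells and ILC2. It measured 24.2, 22.0 and 16.7 CPM in LPS plus RSBD, 20.6, 15.6 and 19.4 CPM in LPS, and 23.7, 15.1 and 13.6 CPM in control libraries. The 3 groups overlapped throughout. The log2 change was 0.09 ± 0.22 in LPS against control (edgeR adjusted p = 0.817) and 0.18 ± 0.22 in LPS plus RSBD against LPS (95% interval -0.31 to 0.67, edgeR adjusted p = 0.854). GENCODE M21 places 3 other gene models over Gata3, 1 of them protein-coding on the same strand, so reads there may be assigned to either.

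Of 20 T helper 2 and ILC2 genes, all tested, Gfi1 fell in LPS against control and Ccr8 rose in LPS plus RSBD against control, and 0 passed in LPS plus RSBD against LPS. Their medians were 0.24, 0.27 and 0.11 in that order, and 7 of the 20 stand in another list. The share of all genes that passed was 17.4% in LPS against control and 3.7% in LPS plus RSBD against control. Gfi1, a repressor that supports T helper 2 cells, ILC2 and neutrophil precursors, measured 1.84, 3.65 and 2.40 CPM in LPS plus RSBD, 2.01, 1.67 and 1.34 CPM in LPS, and 4.22, 5.25 and 3.63 CPM in control libraries. Its change in LPS was -1.38 ± 0.31 (edgeR adjusted p = 0.018, lost without LPS 2, LPS 3 or control 2, highest 0.0693). Ccr8, a chemokine receptor of T helper 2 and regulatory T cells, averaged 1.30 ± 0.915 CPM in LPS plus RSBD and 0.186 ± 0.111 CPM in control lungs (edgeR adjusted p = 0.048). That call was lost without LPS plus RSBD 1, LPS plus RSBD 2, LPS 2, LPS 3 or any single control, in the fit of 2 groups and under 2 of 3 limma settings (highest 0.168).

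Chia1 (ENSMUSG00000062778, chromosome 3, 106113229 to 106132120, up to 11 exons) encodes the acidic chitinase, an enzyme that cleaves the chitin of fungi, insects and parasites. It measured 61.0, 49.0 and 55.3 CPM in LPS plus RSBD, 61.2, 61.7 and 84.5 CPM in LPS, and 100, 92.7 and 106 CPM in control libraries. The 3 ranges did not overlap, with LPS plus RSBD lowest and the lowest LPS library only just above the highest LPS plus RSBD library. Lack of overlap with control, in either direction, held for 38% of all genes in LPS and 30.4% in LPS plus RSBD. Chia1 averaged 69.1 ± 13.3 CPM in LPS and 99.8 ± 6.75 CPM in control lungs, a log2 change of -0.53 ± 0.13 (edgeR adjusted p = 0.0276). It averaged 55.1 ± 6.04 CPM in LPS plus RSBD lungs, a change of -0.86 ± 0.14 from control (edgeR adjusted p = 0.0143). The difference of LPS plus RSBD from LPS was -0.33 ± 0.14 (95% interval -0.63 to -0.03). It had an unadjusted p of 0.035 and an edgeR adjusted p of 0.501, in a comparison where 12.6% of all genes had groups that did not overlap, and without LPS 3 the difference was -0.18. The call in LPS was lost without LPS 1, LPS 2 or any single control (highest adjusted p = 0.106), and that in LPS plus RSBD without LPS plus RSBD 2 or control 3 (0.0555 and 0.052).

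Chil4 (ENSMUSG00000063779, chromosome 3, 106201490 to 106219507), a chitin-binding relative without enzyme activity also called Ym2, varied more between animals of a group than between groups. It had 11, 14 and 0 reads in LPS plus RSBD, 4, 102 and 35 reads in LPS, and 15, 1 and 132 reads in control libraries. Single libraries thus held most of the reads of the LPS group and of the control group. Its log2 changes were -0.13 ± 1.34 in LPS against control and -2.61 ± 1.53 in LPS plus RSBD against LPS (edgeR adjusted p = 0.957 and 0.631), and without control 3 the first became 2.52. Chil3 (Ym1), its neighbour on chromosome 3, made by alveolar macrophages and neutrophils, measured 567, 1360 and 1350 CPM in LPS plus RSBD, 1480, 3210 and 2450 CPM in LPS, and 1100, 944 and 1330 CPM in control libraries. The longest transcripts of the pair are identical at 94.4% of aligned bases in GENCODE M21 but share no run of 150 bases, the read length. Chil4 had 0 to 3.54 reads per 1000 Chil3 reads, so a small share of misassigned Chil3 reads would equal its count, and Chil4 levels are uncertain.

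Among 10 chitinases and chitinase-like genes, 8 were tested. In LPS against control 2 rose and Chia1 fell, in LPS plus RSBD against control Chia1 fell, and in LPS plus RSBD against LPS 0 passed, with medians of 0.08, 0.00 and -0.28. Beside these counts, 17.4%, 3.7% and 0% of all genes passed in that order. All LPS libraries exceeded all LPS plus RSBD and all control libraries for Chil3, with changes of 1.08 ± 0.36 in LPS against control (edgeR adjusted p = 0.0674) and -1.12 ± 0.36 in LPS plus RSBD against LPS (adjusted p = 0.412). Such a lack of overlap held for 38% of all genes in the first comparison and 12.6% in the second, and neither Chil3 change passed. Chil5, a lowly expressed relative, averaged 1.35 ± 0.592 CPM in LPS plus RSBD, 3.49 ± 1.67 CPM in LPS and 0.855 ± 0.0915 CPM in control lungs. It rose by 2.03 ± 0.45 in LPS (edgeR adjusted p = 0.0176, lost without LPS 2, control 2 or control 3, highest 0.0658). Ctbs, a lysosomal enzyme of glycoprotein breakdown with a chitinase-like fold, averaged 25.4 ± 0.824 CPM in LPS plus RSBD, 29.8 ± 3.30 CPM in LPS and 18.5 ± 2.07 CPM in control lungs. It rose by 0.69 ± 0.12 in LPS (adjusted p = 0.0072) and held that call in every alternative. Chil1, a secreted chitinase-like protein of epithelium and macrophages, was abundant at 893 to 1170 CPM in LPS plus RSBD, 605 to 1060 CPM in LPS and 712 to 952 CPM in control libraries and did not pass.

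Markers of macrophages and neutrophils, which make Chil3, are given beside this family. The sum of alveolar macrophage markers other than Chil3 was 554, 562 and 532 CPM in LPS plus RSBD, 438, 768 and 708 CPM in LPS, and 414, 467 and 509 CPM in control libraries. Of the 12 markers 3 rose in LPS against control and 0 passed in the other comparisons, whereas 2 of 12 neutrophil markers rose in LPS against control and 0 passed in the others. Within the LPS group Chil5 was highest in LPS 1 and lowest in LPS 3, as were the summed neutrophil markers, while the macrophage sum was lowest in LPS 1. The part of either cell type in the Chil3 and Chil5 levels was not tested.

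**Figure D5:**
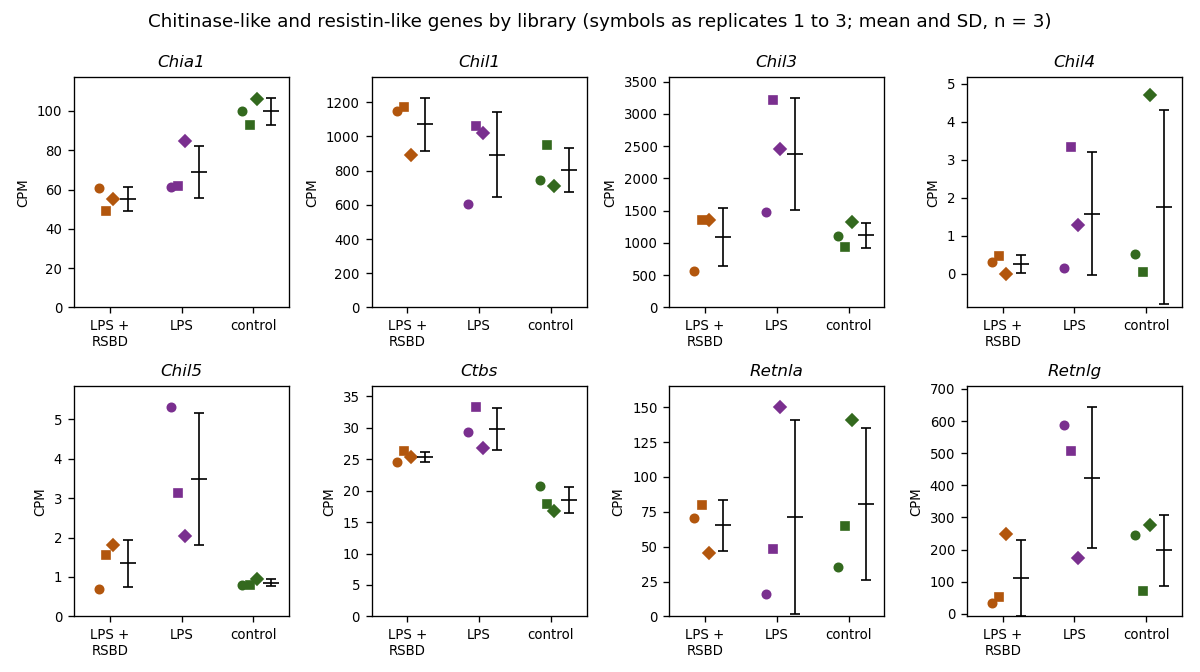
CPM of 6 chitinase family genes and 2 resistin-like genes in each library, with LPS plus RSBD, LPS and control from left to right, symbols for replicates 1 to 3, and mean and SD (n = 3). Chia1 is lowest in LPS plus RSBD at 49.0 to 61.0 CPM, Chil3 is highest in LPS at 1480 to 3210 CPM, and Chil4 and Retnla spread widely within groups.

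Retnla (ENSMUSG00000061100, chromosome 16, 48842551 to 48844461, 4 exons) encodes RELM alpha, a secreted protein that is a standard marker of macrophages exposed to IL-4 or IL-13 in mice. By TPM it was the most abundant member in controls at 247 ± 171, ahead of Il33 at 146 ± 21.7, Chia1 at 108 ± 7.84 and Il4ra at 72.6 ± 6.35, with a range of 103 to 436 TPM in the 3 controls that takes in the means of Il33 and Chia1 but not that of Il4ra. It measured 70.7, 80.2 and 45.2 CPM in LPS plus RSBD, 16.1, 48.4 and 150 CPM in LPS, and 35.4, 65.0 and 141 CPM in control libraries. The lowest and the highest of all 9 libraries both belonged to the LPS group, and the 3 groups overlapped throughout. The log2 change was -0.17 ± 0.72 in LPS against control (95% interval -1.79 to 1.44, edgeR adjusted p = 0.887) and -0.13 ± 0.72 in LPS plus RSBD against LPS (95% interval -1.74 to 1.49, edgeR adjusted p = 0.975). With such intervals a change of 2-fold either way lay within what these animals allow. Its relative Retnlg, a neutrophil gene, measured 33.7, 52.9 and 249 CPM in LPS plus RSBD, 589, 508 and 174 CPM in LPS, and 247, 71.4 and 277 CPM in control libraries, and did not pass. Of the 4 genes of the family 3 were tested and 0 passed in any comparison.

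Arg1 (ENSMUSG00000019987, chromosome 10, 24915221 to 24927484) encodes arginase, the enzyme that turns arginine into ornithine in ILC2 and in macrophages exposed to IL-4. It was barely expressed, at 2.17, 1.42 and 2.54 CPM in LPS plus RSBD, 1.34, 1.27 and 2.83 CPM in LPS, and 2.25, 2.07 and 2.60 CPM in control libraries. LPS 3 was the highest and LPS 2 the lowest of all 9 libraries. The log2 change was -0.35 ± 0.37 in LPS against control (edgeR adjusted p = 0.544) and 0.17 ± 0.37 in LPS plus RSBD against LPS (95% interval -0.66 to 1.00, adjusted p = 0.927).

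Of 24 genes of alternatively activated macrophages, 23 were in the table and all 23 were tested. In LPS against control 2 rose and 1 fell (median 0.30), in LPS plus RSBD against control 1 rose and 1 fell (median 0.14), and in LPS plus RSBD against LPS 0 passed (median -0.09). All genes tested passed at 17.4%, 3.7% and 0% in that order. Mrc1, the mannose receptor of macrophages and of some endothelium, averaged 99.3 ± 10.5 CPM in LPS plus RSBD, 100 ± 10.7 CPM in LPS and 64.8 ± 13.0 CPM in control lungs. It was called in LPS and in LPS plus RSBD against control (edgeR adjusted p = 0.0204 and 0.0478), the first call being lost without LPS 2, LPS 3 or control 3 and the second when any library other than control 2 was left out (highest 0.0676 and 0.157). Both were lost under all 3 limma settings, and the second in the fit of 2 groups. Matk, a tyrosine kinase, rose in LPS by 0.67 ± 0.18 (adjusted p = 0.0337, lost without LPS 2, LPS 3 or any single control and under all 3 limma settings, highest 0.119). Flt1, a VEGF receptor that is abundant in endothelium, averaged 302 ± 35.0 CPM in LPS plus RSBD, 306 ± 57.0 CPM in LPS and 450 ± 28.0 CPM in control lungs. It fell in LPS and in LPS plus RSBD (adjusted p = 0.0254 and 0.0484), the first call being lost without LPS 2, LPS 3 or any single control and the second when any library other than LPS 1 was left out (highest 0.0956 and 0.126). The second was also lost under RLE scaling and all 3 limma settings. Endothelial markers summed to 3520 to 3800 CPM in LPS plus RSBD, 3700 to 4540 CPM in LPS and 3450 to 3710 CPM in control libraries, with 2 of 10 higher and 0 lower in LPS.

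Of 20 listed symbols for airway genes that IL-13 induces, 18 were in the table and 16 were tested. Postn and Serpinb2 rose while Agr2 and Fcgbp fell in LPS against control (median -0.23). Postn was, in LPS plus RSBD against control, the 1 call (median 0.23), and in LPS plus RSBD against LPS 0 passed (median 0.79). These comparisons called 17.4%, 3.7% and 0% of all genes in that order. Postn, the matrix protein periostin, averaged 274 ± 76.0 CPM in LPS plus RSBD, 273 ± 19.8 CPM in LPS and 129 ± 18.1 CPM in control lungs. It rose by 1.08 ± 0.19 in LPS (edgeR adjusted p = 0.009) and by 1.09 ± 0.19 in LPS plus RSBD (0.0229, lost without LPS plus RSBD 1, LPS plus RSBD 2 or any single control and in the fit of 2 groups, highest 0.0749). Fcgbp, a mucus protein, averaged 4.76 ± 1.33 CPM in LPS plus RSBD, 2.02 ± 0.504 CPM in LPS and 6.48 ± 2.24 CPM in control lungs, a change of -1.68 ± 0.33 in LPS (adjusted p = 0.0117, lost without LPS 2, 0.0524). Agr2, a chaperone of mucous cells, averaged 1.61 ± 1.24 CPM in LPS plus RSBD, 0.321 ± 0.106 CPM in LPS and 2.09 ± 1.31 CPM in control lungs (adjusted p = 0.0341 in LPS, lost when any LPS library, control 2 or control 3 was left out and under 2 of 3 limma settings, highest 0.119). Serpinb2, a plasminogen activator inhibitor, averaged 2.73 ± 1.78 CPM in LPS and 0.517 ± 0.200 CPM in control lungs (adjusted p = 0.0315, lost without LPS 1, LPS 2 or any single control and under 2 of 3 limma settings, highest 0.107). The club cell markers, 5 of 10 lower in LPS against control, moved beside Agr2 and Fcgbp, where 8.63% of all genes were lower. Of the stromal markers 1 of 12 was higher in that comparison, near the share of all genes that were higher (8.79%). The part of club and stromal cells in these changes was not tested.

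Of 11 type 2 chemokines and receptors, 10 were tested. Ccr3, the eotaxin receptor of eosinophils and basophils, was the 1 call in LPS against control (median 0.50), Ccr3 and Ccr8 rose in LPS plus RSBD against control (median 0.53), and 0 passed in LPS plus RSBD against LPS (median 0.22). For all genes the shares called were 17.4%, 3.7% and 0% in that order. Ccr3 measured 4.94, 2.84 and 3.34 CPM in LPS plus RSBD, 1.23, 6.43 and 3.20 CPM in LPS, and 0.141, 0.509 and 0.0712 CPM in control libraries. Every library of LPS-treated mice was higher than every control (edgeR adjusted p = 0.0115 in LPS and 0.0262 in LPS plus RSBD, the second lost without LPS plus RSBD 1, LPS plus RSBD 2, control 1 or control 3, highest 0.0847). Separation from control, in either direction, held for 38% of all genes in LPS and 30.4% in LPS plus RSBD. Ccr3 is itself 1 of 6 tested eosinophil markers, of which Siglecf, also an alveolar macrophage marker, was the other to rise in LPS against control. In that comparison 5 of 11 tested basophil and mast cell markers rose, and the part of these cells was not tested. The defining eosinophil genes Epx and Prg3 were too low to test in any group.

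The genes whose levels followed a member most closely were taken as the 3 with the highest Pearson correlation of log2 CPM over the 9 libraries, among 12134 candidates with a mean of at least 5 CPM, as a description with no test. All 9 points share the group structure. For Il33 these were E2f6 (0.98), Fem1b (0.96) and Leng1 (0.959), and for Chia1 they were Cers2 (0.959), Entr1 (0.947) and Pde8a (0.945). For Il4ra they were Vcan (0.974), Dock5 (0.966) and Hdac4 (0.964), and for Retnla they were Pofut2 (0.932), Oxct1 (0.931) and Yrdc (0.907). No listed member of the type 2 arm was among these 12 genes, but listed genes averaging under 5 CPM, such as Tslp, Arg1 and Chil4, were not candidates.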

How the data were processed

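RNA of 9 mouse lungs was sequenced. Libraries were made from enriched mRNA with a kit that keeps strand and sequenced as read pairs of 150 bases, per the labels' protocols. The submitters' processing notes name StringTie 2.2.0, HISAT2 2.2.1, DESeq2 1.38.3 and fastp 0.23.2 with build GRCm38 (mm10), in no order. Which program counted, and on which annotation release, is not given in the sources. The authors deposited a table of estimated counts (expected counts) for 21930 protein-coding genes. All values are whole, so none was rounded, and values of 2 outnumber values of 1 (2989 against 1349), so reads may not be independent. TPM, which the authors deposited in a second table, served for levels across genes and for alternatives. The columns headed RS were taken as LPS plus RSBD, the group the other columns do not name.

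Genes past filterByExpr (counts of 10, totals of 15) were scaled by TMM and fitted in edgeR 4.0.16 (R 4.3.3) as 1 robust quasi-likelihood model of all 9 libraries with group as the factor. Tests were 2-sided, with Benjamini-Hochberg adjustment over the 15636 genes kept. Log2 changes had a median SE of 0.15 at depths of 26959662 to 36113905 counts. Alternatives were RLE scaling, no filter, DESeq2 1.42.0, limma 3.58.1 on log2 TPM (pseudocounts 1 and 0.1, and 1 with genes filtered at 1 TPM in 3 libraries), a fit of 2 groups, a replicate block and leaving out each library. The fit was tested on simulated data. The members, the 20 gene lists (5 listed symbols not being in the table) and the tests were chosen with earlier results of these data known. The genes named are the members, listed genes that passed or are relatives of members, and the 3 genes most like a member. Epx and Prg3, named as defining eosinophil genes, and Sftpc, named for its share of the alveolar type 2 sum, fall outside this rule. These were named after their values were seen. Deposited coordinates of the 10 members match GENCODE M21.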

Additional observations from a re-analysis of the deposited data

How the results depend on the processing

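The groups share replicate numbers, but deviations of same-numbered libraries correlated at -0.215 to 0.122, so the numbers were not taken as pairs. With the replicate block, 1828 genes and 2 members passed in LPS against control, 0 and 0 in LPS plus RSBD against LPS, and 240 and 1 in LPS plus RSBD against control. Without the block these were 2723 and 2, 0 and 0, and 578 and 1. Under the block the uncalled Retnla became 0.50 in LPS plus RSBD against LPS and 0.14 against control, and Tslp 0.00 against control. The calls of Csf2rb, Il17ra, Matk and Agr2 in LPS against control, and of Ccr8, Mrc1 and Flt1 in LPS plus RSBD against control, were not made under the block.

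DESeq2 called 159 genes in LPS plus RSBD against LPS, and 1727 genes and 2 members in LPS plus RSBD against control. The fit of 2 groups called 1 gene and 0 members in LPS plus RSBD against LPS, and 408 genes and 2 members in LPS plus RSBD against control. With limma on log2 TPM (pseudocount 1, pseudocount 0.1, and 1 with a TPM filter), 1, 1 and 1 genes passed in LPS plus RSBD against LPS, and 275, 302 and 308 against control. On that scale 696 of 1996, 697 of 1987 and 711 of 2049 calls in LPS against control were higher, where 1374 of 2723 were by edgeR, and 90 of 275, 100 of 302 and 96 of 308 in LPS plus RSBD against control, where 296 of 578 were. The median log2 change of all genes was -0.085, -0.101 and -0.09 in LPS against control, where it was -0.006 by edgeR. The cause was not tested. On those 3 TPM settings Chil4 became 0.05, 0.43 and 0.05 in LPS against control, Retnla 0.38 in LPS plus RSBD against LPS, and Tslp -0.08, -0.10 and -0.08 and Il4ra -0.03 in LPS plus RSBD against control, none of them called.

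Leaving out each library in turn gave 786 to 2870 genes and 0 to 2 members in LPS against control, 0 to 4 genes and 0 to 0 members in LPS plus RSBD against LPS, and 94 to 961 genes and 0 to 2 members in LPS plus RSBD against control. Log2 changes that turned sign, none of them called, ranged from -1.29 to 2.52 for Chil4, -1.31 to 0.51 for Retnla, -0.11 to 0.41 for Il1rl1 and -0.07 to 0.37 for Gata3 in LPS against control. In LPS plus RSBD against LPS they ranged from -0.60 to 1.00 for Retnla, -0.03 to 0.62 for Arg1 and -0.09 to 0.43 for Il1rl1. In LPS plus RSBD against control they ranged from -0.19 to 0.25 for Tslp, -0.36 to 0.03 for Arg1, -0.22 to 0.22 for Il4ra and -0.66 to 0.38 for Retnla. Il33 and Chia1 kept their sign in every alternative of both comparisons with control. Il13 had too few reads to be tested at this depth, and 3 animals a group limit the precision of every comparison.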
